A study of Mus musculus with 50 samples.

Results

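Gastrocnemius muscle of 26 months-old mice was compared with that of 8 months-old mice, the pair of ages that spans adulthood and the onset of sarcopenia, the loss of muscle mass and strength with age. The comparison holds 17 of the 50 mice of the series, 9 at 26 months and 8 at 8 months, and 12586 of the 23880 genes of the table, those that reached 1 CPM (a count scaled to the library total) or more in 8 or more of the 50 mice. The series followed aging of the calf muscle in males of the C57BL/6JRj strain at 6 ages by poly(A) RNA sequencing, 1 library per mouse. All 17 mice were wild type, male, singly caged and fed AIN-93M, a purified maintenance diet, and by the study's criteria none of them was sick or carried a tumor when killed. The old mice had eaten this diet since late adulthood, whereas the 8 months-old mice had it only for an acclimatization period before the endpoint, so age and diet history cannot be told apart here. Total counts per mouse were 15042861 to 20515435 (median 18.4 M, M for mega) at 8 months and 13920425 to 18945656 (median 16.5 M) at 26 months, and the means differed by -2.26 M (two-sided exact permutation test, p = 0.0294). This lower depth moved with age, and its part in the results was not tested.

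Muscle mass is set by the balance of protein synthesis and breakdown. When fibres lose their nerve supply or are starved of growth signals, FoxO transcription factors raise muscle-specific ubiquitin ligases that tag contractile proteins for the proteasome, and the acetylcholine receptor, normally kept under the nerve ending, is made again along the fibre. Old muscle is also known for changes in its collagen matrix, its mitochondria and its resident immune cells.

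Principal component analysis of the 17 mice, on log2(TPM + 1) of 11817 genes (TPM is a level corrected for transcript length and depth), set the ages apart on the first component (PC1), which carried 39.9% of the variance. The 8 months-old mice lay between -27.4 and -7.36 (mean -18.3 ± 6.86 SD, n = 8) and the 26 months-old mice between 0.52 and 40.8 (mean 16.3 ± 13.6 SD, n = 9). The 2 ages did not overlap and their means differed by 34.6 (two-sided exact permutation test, p = 8.23e-05, the smallest p this design allows). Among the old mice, replicates 1 and 8 were farthest from the 8 months-old mice, and replicate 7 was closest to them. The second component, 11.9% of the variance, spread the young mice, with replicate 3 at its upper and replicate 8 at its lower end. The median coefficient of variation over genes was 15.9% at 8 months and 16.8% at 26 months, a difference of 0.966 percentage points that a two-sided exact permutation test did not separate from 0 (p = 0.651).

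**Figure D1:**
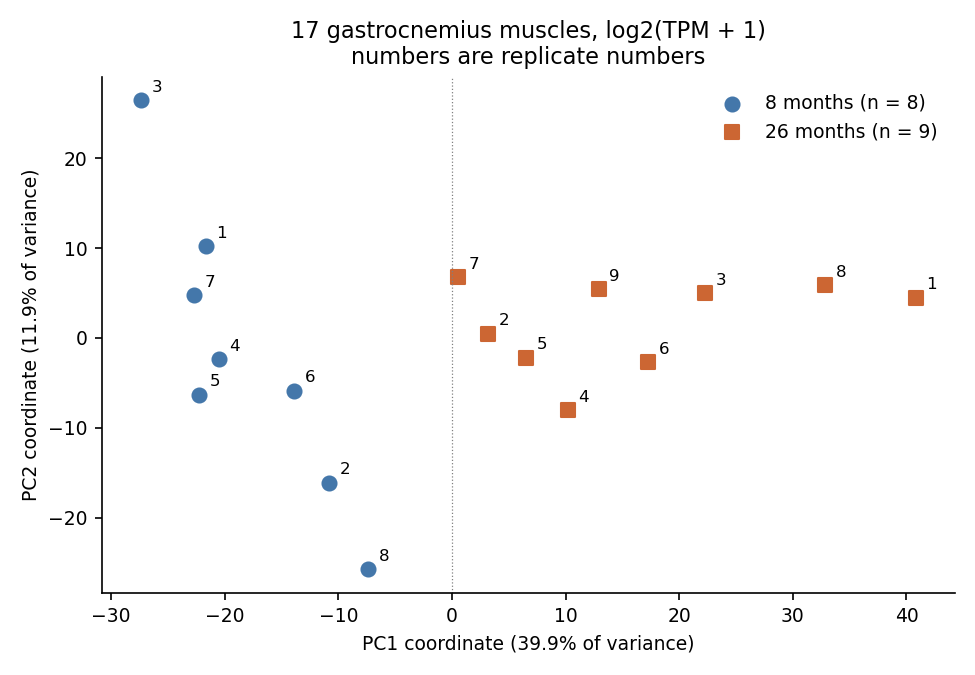
First and second principal component of the 17 muscles (log2(TPM + 1); axis units are component coordinates), circles for the 8 mice of 8 months and squares for the 9 mice of 26 months, numbered by replicate. All 26 months-old mice lie to the right of 0 on PC1 and all 8 months-old mice to the left, and replicates 1 and 8 of 26 months lie farthest right, at 40.8 and 32.8.

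Between 26 and 8 months 2314 genes changed, 18.4% of those tested (edgeR's quasi-likelihood test, Benjamini-Hochberg adjusted p, called FDR here, below 0.01). Of these, 1239 (9.84% of genes tested) were higher and 1075 (8.54%) lower in the old muscle. Most changes were small. The median size of a called change was 0.51 on the log2 scale, 85.7% of called genes changed less than 2-fold, 182 rose 2-fold or more and 148 fell 2-fold or more. For 356 genes (2.83% of genes tested) the CPM of all old mice lay outside the range of the young mice. Single mice weighed on these counts: 1453 genes passed without 26 months-old replicate 1, and 842 without replicates 1 and 8 together, 833 of them among the 2314. No called gene changed its sign in any of these fits.

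**Figure D2:**
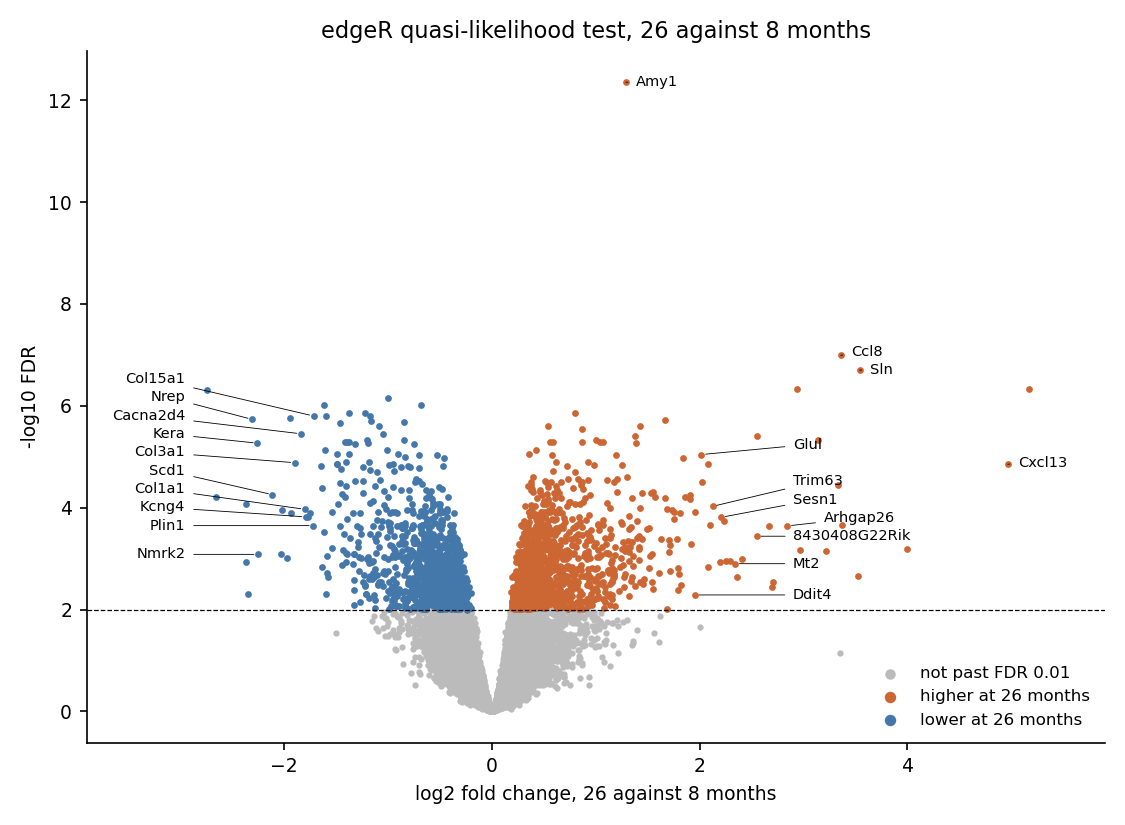
Log2 fold change of 26 against 8 months (x axis) and -log10 of the FDR (y axis, dashed line at FDR 0.01) of 12586 genes, orange for the 1239 genes higher and blue for the 1075 genes lower at 26 months. Names mark the 10 largest increases and 10 largest decreases among called genes averaging 5 CPM or more, and Amy1, the gene with the lowest FDR.

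Of 15 tested ubiquitin ligases and related genes linked to atrophy, 5 rose in the old mice and none fell, beside 9.84% and 8.54% of all genes, with a median log2 fold change of 0.17 beside -0.000934 over all genes. Trim63 encodes MuRF1, a ubiquitin ligase of the sarcomere and a classical marker of atrophy (chromosome 4, 134315120-134329629, GRCm38). At 8 months it ranged from 61.6 to 171 CPM (median 88.4) and at 26 months from 121 to 942 CPM (median 305), a log2 fold change of 2.13 ± 0.39 (SE; edgeR FDR 9.42e-05). Replicates 8, 1 and 3 were highest, and 8 of 9 old mice exceeded every young mouse, replicate 7 being the exception. Fbxo32, which encodes the ligase atrogin-1, went from 415 to 869 CPM (median 557) at 8 months to 612 to 2642 CPM (median 1134) at 26 months (log2 fold change 1.28 ± 0.31, edgeR FDR 0.00199). Its call was lost without replicates 1 and 8 of 26 months, whereas Trim63 passed in every other fit tried. The other members that rose were Cblb, a ligase that restrains insulin-like growth factor signalling (0.86 ± 0.21), Fbxo31 and Nedd4, and Cblb did not pass without replicate 8 of 26 months. Without replicates 1 and 8 the list had 2 genes that rose.

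Of the 4 FoxO factors, which switch on atrophy genes when insulin signalling falls, 2 rose and 1 fell, beside 9.84% and 8.54% of all genes. Foxo1 lay at 20.1 to 72.1 CPM (median 44.6) in young and 44.9 to 228 CPM (median 120) in old muscle (log2 fold change 1.51 ± 0.36, edgeR FDR 0.00152), with 8 of 9 old mice above all young ones. Foxo3 rose by 0.95 ± 0.20 on the log2 scale, from a median of 32.3 to 54.9 CPM. Foxo6, a factor of low abundance in these samples, fell from a median of 2.30 to 0.952 CPM (log2 fold change -1.54 ± 0.33, edgeR FDR 0.000608). The highest values of Foxo1 and Foxo3 were again those of replicates 1, 8 and 3, and the Foxo1 call was lost without replicates 1 and 8.

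The 250 bases before the RefSeq start (GRCm38.p6) are shown for Trim63, Mt2 and Chrna1, called members of the atrophy, metallothionein and acetylcholine receptor groups whose windows hold matches, 5′ to 3′ on the gene's strand, with capitals for the short motifs chosen for each gene, searched on both strands. In Trim63 (chr4:134314870-134315119, plus strand) the capitals are AGAACA, the half-site read by the glucocorticoid receptor, 200 to 195 bases before the start, and GTAAACA, the motif read by FoxO factors, 194 to 188 bases before it, both on the opposite strand and without overlap. The Trim63 window also holds CAGCTG, the E-box shown for Chrna1, 1 time, left in lower case. GTAAACA was found in 3.17% of 32851 RefSeq promoter windows of this length and AGAACA in 16.1%. In Mt2 (chr8:94172368-94172617, plus strand) they are the core of the metal response element, TGCACNC or TGCGCNC, at 223 to 217, 128 to 122 and 50 to 44 bases before the start, and such a core was found in 21.4% of windows. In Chrna1 (chr2:73580339-73580588, minus strand) they are CAGCTG, an E-box of the kind read by myogenic factors, at 92 to 87 and 44 to 39 bases before the start, found in 13.0% of windows. Other members differ from these 3. The window of Cblb, which rose, holds GTAAACA 0 times and that of Chrnb1, which rose, CAGCTG 0 times, while Chrne, which did not pass, holds CAGCTG 1 time and Mdm2, which did not pass, GTAAACA 1 time. A match describes these letters only, and factor binding was not measured.
Trim63: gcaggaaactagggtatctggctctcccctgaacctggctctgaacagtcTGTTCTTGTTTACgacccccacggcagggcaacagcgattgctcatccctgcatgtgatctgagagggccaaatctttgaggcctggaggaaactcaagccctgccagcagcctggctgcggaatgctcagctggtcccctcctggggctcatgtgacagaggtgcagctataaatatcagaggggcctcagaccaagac
Mt2: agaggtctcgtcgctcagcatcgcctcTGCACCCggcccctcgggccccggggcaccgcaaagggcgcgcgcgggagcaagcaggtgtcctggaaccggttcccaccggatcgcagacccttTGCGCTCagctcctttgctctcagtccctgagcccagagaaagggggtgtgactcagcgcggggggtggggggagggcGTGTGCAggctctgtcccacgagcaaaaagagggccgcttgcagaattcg
Chrna1: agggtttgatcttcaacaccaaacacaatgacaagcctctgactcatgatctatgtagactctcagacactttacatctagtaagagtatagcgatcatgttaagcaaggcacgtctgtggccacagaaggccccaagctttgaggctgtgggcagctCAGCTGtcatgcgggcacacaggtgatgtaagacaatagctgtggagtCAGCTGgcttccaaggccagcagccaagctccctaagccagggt

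Sesn1, Ddit4, 8430408G22Rik, Glul and Arhgap26 were among the 10 largest increases of genes averaging 5 CPM or more. Sesn1, a stress-induced inhibitor of mTORC1 and a target of p53 and FoxO, was at 18.9 to 33.5 CPM (median 25.6) in young and 27.1 to 348 CPM (median 56.5) in old muscle (log2 fold change 2.21 ± 0.42, edgeR FDR 0.000154). The old group was wide, with replicates 1 and 8 far above the rest and replicate 7 within the young range, and the call did not hold without those 2 mice. Ddit4, another mTORC1 inhibitor induced by stress and glucocorticoids, ran from 19.2 to 153 CPM (median 49.5) at 8 months and from 100 to 351 CPM (median 242) at 26 months (log2 fold change 1.96 ± 0.54, edgeR FDR 0.00517). One young mouse, replicate 2, reached 153 CPM, and the call was lost in 7 of 25 other fits, 6 of them fits that left out 1 mouse. 8430408G22Rik, named Depp1 in RefSeq and known as a FoxO-induced gene, rose from a median of 13.9 to 59.0 CPM, with all 9 old mice above all young ones (log2 fold change 2.55 ± 0.53, edgeR FDR 0.000364). Glul, glutamine synthetase, which makes the glutamine that wasting muscle releases, rose from 221 to 532 CPM (median 286) to 834 to 2419 CPM (median 1372), again without overlap (log2 fold change 2.02 ± 0.31, edgeR FDR 9.06e-06). Arhgap26, a GTPase-activating protein, had a wide spread among old mice, 9.35 to 209 CPM (median 24.4) against 4.07 to 13.6 CPM (median 7.98) in the young. Its log2 fold change was 2.85 ± 0.56 (edgeR FDR 0.000228) and its call was lost without replicates 1 and 8.

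Of 17 genes linked to p53, 4 rose and none fell (median log2 fold change 0.29), beside 9.84% and 8.54% of all genes. They were Sesn1, Cdkn1a, Eda2r and Trp53inp1. Cdkn1a, the cell cycle inhibitor p21, rose from a median of 17.3 to 50.3 CPM with 8 of 9 old mice above all young ones (log2 fold change 1.91 ± 0.33, edgeR FDR 5.52e-05). Eda2r, a receptor of the tumor necrosis factor family, lay at 32.3 to 50.2 CPM in young and 64.3 to 178 CPM in old muscle, with no overlap (log2 fold change 1.38 ± 0.20, edgeR FDR 3.84e-06). Mdm2, the p53 target that degrades p53, did not pass, with a log2 fold change of 0.08 ± 0.07. Sesn1 and Trp53inp1 did not pass without replicates 1 and 8. Cdkn2b, encoding the cell cycle inhibitor p15, fell at a low level, from a median of 1.57 to 0.780 CPM (log2 fold change -0.95 ± 0.21, edgeR FDR 0.000851).

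In the integrated stress response, 2 of 17 tested genes rose and 1 fell, shares near those of all genes (9.84% and 8.54%), and none of these 3 passed without replicates 1 and 8. Besides Ddit4, Eif4ebp1, the repressor of translation initiation, rose from a median of 44.9 to 80.6 CPM (log2 fold change 1.29 ± 0.28, edgeR FDR 0.000694). Phgdh, the first enzyme of serine synthesis, fell (-0.84 on the log2 scale). Atf4, the transcription factor at the centre of this response, had a log2 fold change of 0.29 ± 0.13 (edgeR FDR 0.0903). Among 20 tested amino acid transporters 4 rose and 1 fell, beside 9.84% and 8.54% of all genes. Slc7a2, a carrier of cationic amino acids, did not overlap between ages and rose from 49.2 to 70.9 CPM (median 64.1) to 78.3 to 400 CPM (median 132), a log2 fold change of 1.67 ± 0.30 (edgeR FDR 6.49e-05). Slc43a1, a carrier of branched-chain amino acids, had a similar log2 fold change, 1.63 ± 0.34 (edgeR FDR 0.000419), which did not pass without replicates 1 and 8.

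**Figure D3:**
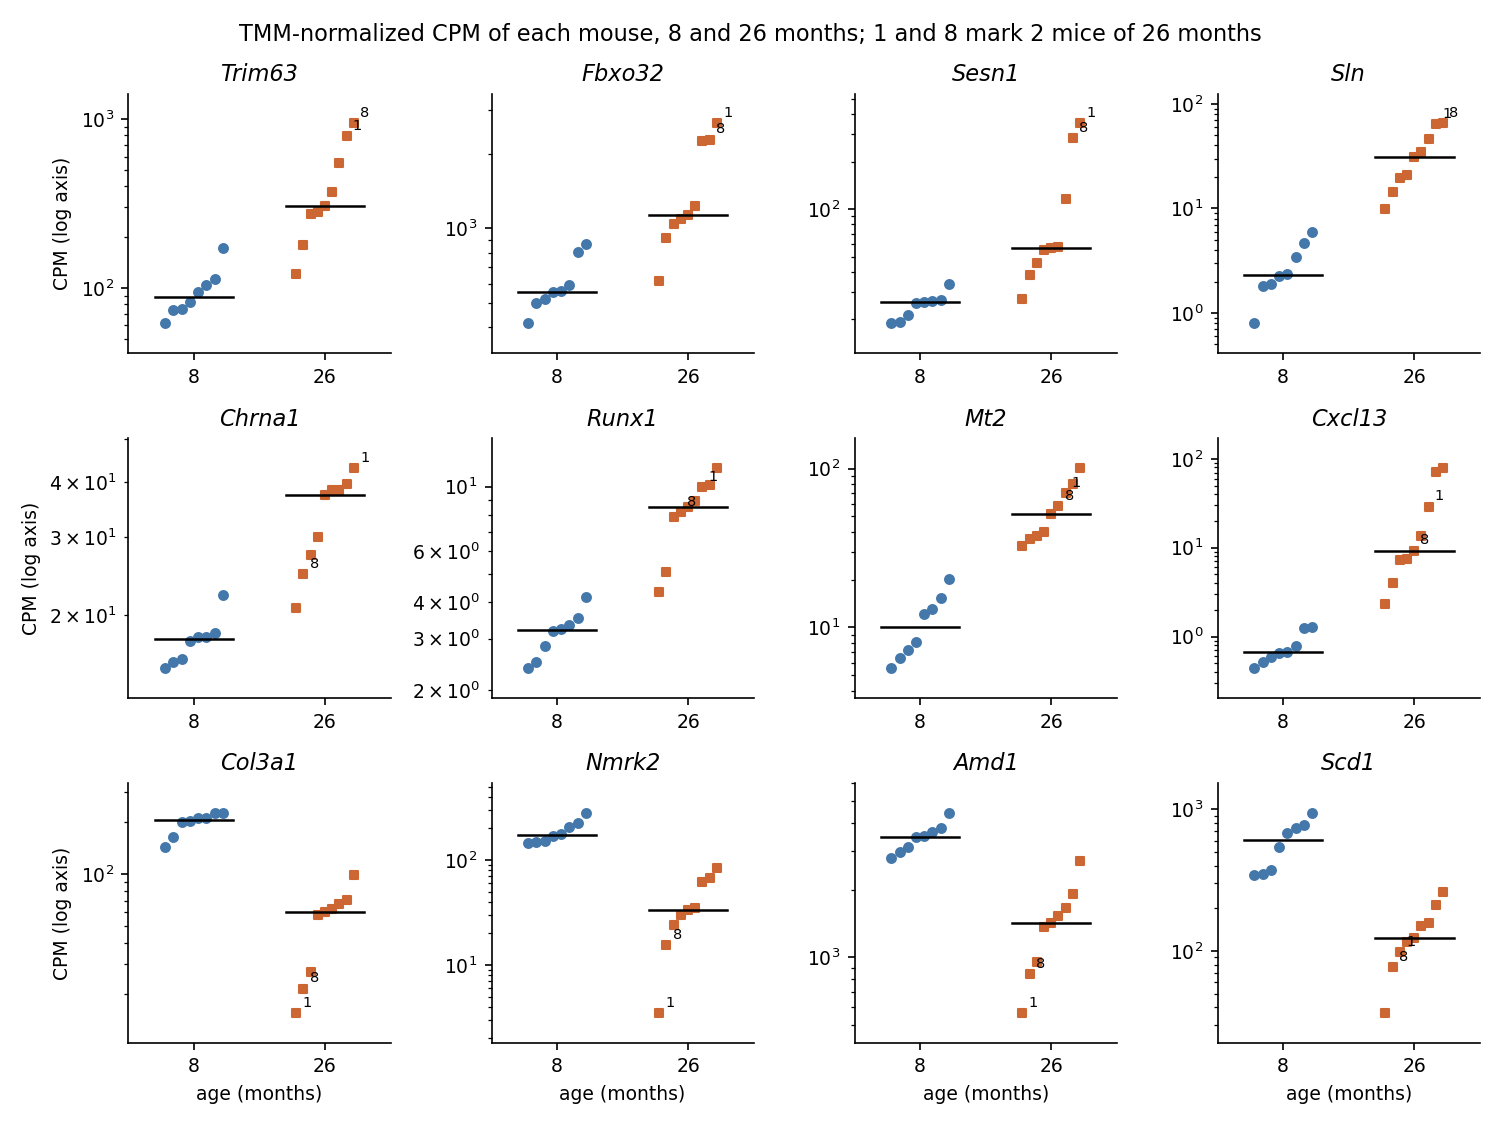
CPM of each mouse on log axes for 12 genes, sorted within each age, circles for 8 months and squares for 26 months, with bars at the group medians and the labels 1 and 8 on those replicates of 26 months. Sln, Mt2, Cxcl13 and Runx1 do not overlap between the ages, nor do Col3a1, Nmrk2, Amd1 and Scd1, and replicates 1 and 8 have the highest Sesn1 and Trim63.

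Several genes that denervated fibres switch on rose by 26 months. Sln encodes sarcolipin, a small inhibitor of the calcium pump of the sarcoplasmic reticulum (chromosome 9, 53850164-53854560). Its level was 0.796 to 5.96 CPM (median 2.33) at 8 months and 9.86 to 64.9 CPM (median 30.7) at 26 months, a log2 fold change of 3.54 ± 0.42 (edgeR FDR 1.99e-07). Every old mouse exceeded every young one. Of 4 tested subunits of the acetylcholine receptor 2 rose, beside 9.84% of all genes. Chrna1, the alpha subunit, ranged from 15.1 to 22.1 CPM (median 17.6) in young and from 20.7 to 43.0 CPM (median 37.5) in old mice, with only replicate 6 of 26 months inside the young range (log2 fold change 0.93 ± 0.15, edgeR FDR 1.27e-05). Chrnb1, the beta subunit, did not overlap between ages, with medians of 32.5 and 56.4 CPM (0.87 ± 0.12, edgeR FDR 2.88e-06). The adult epsilon subunit Chrne (0.05 ± 0.15) and the delta subunit Chrnd (0.30 ± 0.18) did not pass.

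Of 12 tested genes of the denervation response 4 rose, beside 9.84% of all genes, none fell, and the median log2 fold change was 0.48. Runx1, a transcription factor induced in denervated fibres, went from 2.38 to 4.16 CPM (median 3.22) to 4.35 to 11.6 CPM (median 8.50), without overlap (log2 fold change 1.40 ± 0.27, edgeR FDR 0.000181). Gadd45a, a stress protein that acts in denervation atrophy, rose from a median of 19.6 to 47.4 CPM (1.36 ± 0.31, edgeR FDR 0.000871). Gdf5, a bone morphogenetic protein of the denervation response, rose at a low level, from 0 to 0.217 CPM to 0.127 to 2.36 CPM (edgeR FDR 0.00285). It is 1 of 2 among the 4 that passed the filter on low counts only through older mice, and its call was lost by limma on log2(TPM + 1). Myog, the myogenic factor that rises sharply after nerve section, had 0.55 ± 0.35 (edgeR FDR 0.216). Replicate 3 of 26 months stood above the other old mice in Myog, at 11.3 CPM. Of 11 tested organizers of the neuromuscular junction 1 passed, a share near the 9.84% of all genes that rose. It was Musk, the kinase that clusters the receptor, which rose from a median of 50.1 to 92.4 CPM (1.03 ± 0.23, edgeR FDR 0.000941), and it did not pass without replicates 1 and 8.

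The metallothioneins Mt1 and Mt2, small proteins that bind zinc and copper, rose without overlap, 2 of 8 tested genes of their list. Over all genes 9.84% rose, and 2.83% did not overlap between the ages in either direction. Mt2 (chromosome 8, 94172664-94173568) stood at 5.54 to 20.3 CPM (median 10.1) in young and 32.3 to 101 CPM (median 51.7) in old muscle (log2 fold change 2.34 ± 0.55, edgeR FDR 0.00126). Mt1 stood at 10.1 to 31.5 CPM (median 14.4) and 33.3 to 103 CPM (median 49.7), a log2 fold change of 1.79 ± 0.48 (edgeR FDR 0.00407). The lowest old mouse was thus above the highest young mouse for both genes, while the Mt1 call was lost without replicates 1 and 8. The 2 genes are close copies, and reads that fit both were divided between them. The other 6 tested genes of metal transport did not pass.

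Collagen genes fell in most tested members. Of 15 tested fibrillar and fibre-associated collagens 12 fell and none rose, beside 8.54% of all genes, with a median log2 fold change of -1.19. In 9 of the 15 all old mice lay below all young mice, where the ages did not overlap, in either direction, in 2.83% of all genes. Col3a1, the collagen of loose connective tissue (chromosome 1, 45311538-45349706), dropped from 145 to 227 CPM (median 208) to 15.6 to 99.3 CPM (median 60.3), a log2 fold change of -1.90 ± 0.30 (edgeR FDR 1.31e-05). Col1a1, a chain of type I collagen, dropped from a median of 98.9 to 31.8 CPM (-1.80 ± 0.33, edgeR FDR 0.000108). Col15a1, a collagen near the fibre's basement membrane, had medians of 40.4 and 11.8 CPM (-1.72 ± 0.23, edgeR FDR 1.59e-06). Type V and type VI collagens fell too, for example Col5a1 (-1.32 ± 0.20) and Col6a1 (-1.24 ± 0.20). Replicates 1, 8 and 4 of 26 months had the lowest Col3a1 and Col1a1. The list had 12 genes that fell in each fit that left out 1 mouse, and 10 without replicates 1 and 8.

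A part of the other matrix genes also fell. Small leucine-rich proteoglycans bind collagen fibrils, and 4 of 10 tested fell, beside 8.54% of all genes, with none higher, or 2 without replicate 1 of 26 months or replicate 4 or 7 of 8 months. Kera, keratocan, was at 8.67 to 16.4 CPM (median 13.5) in young and 0.345 to 4.45 CPM (median 3.02) in old muscle (log2 fold change -2.26 ± 0.34, edgeR FDR 5.42e-06). Chad (-1.59 ± 0.39), Lum (-0.79 ± 0.22) and Fmod (-0.71 ± 0.21) were the others, Fmod losing its call in 14, Lum in 7 and Chad in 1 of 25 other fits. Beside the same share, 6 of 12 basement membrane genes fell, 3 without replicate 1 or without replicate 9 of 26 months. Sparc, a collagen chaperone of the matrix, fell from a median of 240 to 163 CPM without overlap (-0.68 ± 0.09, edgeR FDR 9.77e-07). Of 22 matrix-processing genes 8 fell and 1 rose, beside 8.54% and 9.84% of all genes. Serpinh1, the chaperone HSP47 that collagen needs to fold, fell from a median of 66.0 to 33.1 CPM (-1.21 ± 0.18, edgeR FDR 4.70e-06), and Loxl2, a collagen cross-linking oxidase, from 16.6 to 27.2 CPM to 7.09 to 15.3 CPM (-1.16 ± 0.16, edgeR FDR 2.01e-06). Lox, the related oxidase, went the other way, from 15.1 to 33.9 CPM (1.01 ± 0.23, edgeR FDR 0.000923), but did not pass without replicates 1 and 8 of 26 months.

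Markers of matrix-making cells were among the genes that fell. Of 12 fibroblast markers 8 fell, beside 8.54% of all genes, and none rose (median log2 fold change -0.74), 3 of these 8, Col3a1, Col1a1 and Lum, being genes named above. Their summed level was 2041 to 2926 TPM (median 2570) at 8 months and 1456 to 2267 TPM (median 1654) at 26 months, and the most abundant was Gsn, gelsolin, with means of 1331 and 837 TPM. Of 9 tested tenocyte markers, the cells of tendon, 4 fell, beside the same share, with sums of 171 to 456 TPM (median 290) and 131 to 331 TPM (median 212). Of these 4, Kera, Chad and Fmod are genes named above. All fibroblast and tenocyte markers had counts in every mouse. In whole muscle, fewer cells of a type and less RNA per cell cannot be told apart.

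Nrep, a small protein of wound repair and nerve regeneration, had the largest decrease among the more abundant genes. It dropped from 101 to 137 CPM (median 108) to 4.31 to 44.3 CPM (median 20.6), with no overlap and replicates 1 and 8 lowest (log2 fold change -2.31 ± 0.32, edgeR FDR 1.85e-06). Nmrk2, the nicotinamide riboside kinase of muscle that feeds NAD synthesis (chromosome 10, 81198170-81202051), was at 146 to 281 CPM (median 173) in young and at 3.51 to 84.1 CPM (median 33.8) in old mice. Its log2 fold change was -2.25 ± 0.50 (edgeR FDR 0.000826), and replicate 1 of 26 months was the lowest of its group. Of 16 tested entries for 15 genes of NAD metabolism 3 fell and 1 rose, beside 8.54% and 9.84% of all genes. Their median log2 fold change was -0.03. Sirt3, the NAD-dependent deacetylase of mitochondria, fell from a median of 22.2 to 15.5 CPM (-0.70 ± 0.16, edgeR FDR 0.000914), a call lost without replicates 1 and 8 of 26 months, while Sirt1, its nuclear relative, rose by 0.38 on the log2 scale, a call lost in 11 of the 17 fits that left out 1 mouse.

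Polyamine genes fell in 3 of 12 tested members, beside 8.54% of all genes, and rose in none, with a median log2 fold change of -0.07. Amd1, which decarboxylates S-adenosylmethionine for spermidine and spermine synthesis, lay at 2772 to 4419 CPM (median 3465) at 8 months and 565 to 2691 CPM (median 1423) at 26 months, without overlap (log2 fold change -1.26 ± 0.26, edgeR FDR 0.000333). Smox, spermine oxidase, had medians of 621 and 226 CPM (-1.45 ± 0.23, edgeR FDR 1.75e-05). Azin1, which protects ornithine decarboxylase from its inhibitor, fell less (-0.50 ± 0.13), a call lost in 4 of 25 other fits. Odc1, ornithine decarboxylase itself, did not pass (0.38 ± 0.23, edgeR FDR 0.179).

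Of 8 tested adipocyte markers 3 fell and 1 rose, beside 8.54% and 9.84% of all genes, and Scd1 and Fasn, enzymes of lipogenesis, fell. Scd1, the desaturase of fatty acid synthesis, dropped from 341 to 941 CPM (median 605) to 36.6 to 262 CPM (median 124), with no overlap (log2 fold change -2.11 ± 0.37, edgeR FDR 5.56e-05), and Fasn, fatty acid synthase, from a median of 104 to 34.5 CPM (-1.63 ± 0.39, edgeR FDR 0.00145), the Fasn call being lost without replicates 1 and 8 of 26 months. Plin1, the coat protein of fat cell droplets, had medians of 15.9 and 4.66 CPM (-1.72 ± 0.34, edgeR FDR 0.000225). The other adipocyte markers that fell were Lep (-2.36 ± 0.55), encoding leptin, and Adipoq (-1.28 ± 0.28), encoding adiponectin. Plin4, a droplet protein that muscle fibres also make, rose (1.14 on the log2 scale). The summed level of the adipocyte list was 633 to 1074 TPM (median 799) in young and 536 to 973 TPM (median 742) in old muscle, with Fabp4 at means of 421 and 361 TPM, the most abundant of the list except in replicates 1 and 9 of 26 months, where Plin4 was. How far fat cells in the samples account for Scd1 and Fasn was not tested.

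Most calls in the respiratory chain were in complex I, all lower and small in size. In complex I, which takes electrons from NADH, 15 of 36 tested subunits fell and none rose (median log2 fold change -0.34), beside 8.54% of all genes, and all 36 estimates were below 0. Ndufs4 ranged from 153 to 309 CPM (median 214) at 8 months and 118 to 178 CPM (median 156) at 26 months (-0.47 ± 0.11, edgeR FDR 0.000947). Ndufc1 had medians of 139 and 106 CPM (-0.51 ± 0.11, edgeR FDR 0.000779) and Ndufa8 of 175 and 139 CPM (-0.47 ± 0.11, edgeR FDR 0.00121), which did not pass without replicates 1 and 8 of 26 months. The ages overlapped in each of these genes. One young mouse, replicate 3, stood apart above its group in these 3 genes, and without it 4 complex I subunits fell. Without replicate 1 of 26 months 6 fell, without replicate 8 or 9 of 26 months 8, without replicate 3 of 26 months or replicate 1 of 8 months 9, and without replicates 1 and 8 of 26 months together 3.

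The other complexes had fewer calls, set here beside the 8.54% of all genes that fell. No subunit of complex II (4 tested) or complex III (9 tested) passed in edgeR, while 3 and 7 of them had an unadjusted p below 0.05, all lower, and DESeq2 called 0 and 1. In complex III 2 subunits fell without replicate 8 of 8 months and 1 without replicate 2 of 8 months or replicate 5 or 7 of 26 months. In complex IV 2 of 14 fell, Cox7a2 (-0.43 ± 0.12) and Cox5a (-0.38 ± 0.11), and in complex V, the ATP synthase, 2 of 16, Atp5j (-0.43 ± 0.12) and Atp5g1 (-0.42 ± 0.12). None of these 4 passed without replicate 3 of 8 months or without replicate 1 of 26 months, and without replicate 8 of 8 months 5 fell in each of these complexes. Of 20 genes of the citrate cycle 1 fell, under the share of all genes, Dlat, a subunit of pyruvate dehydrogenase (-0.36 ± 0.11), a call lost in 12 of 25 other fits. The number that fell went from 0, for example without replicate 1 of 26 months, to 6 without replicate 8 of 8 months, and DESeq2 called 5 lower and 1 higher. In fatty acid uptake and oxidation no gene of 25 passed in edgeR, 3 were higher and 3 lower at an unadjusted p below 0.05, and DESeq2 called 1. Ppargc1a, the coactivator PGC-1 alpha that drives mitochondrial genes, was 0.89 ± 0.34 higher on the log2 scale without passing (edgeR FDR 0.0396). In glycolysis and glycogen metabolism 1 of 26 genes rose and 1 fell, under the 9.84% and 8.54% of all genes, Gbe1, the glycogen branching enzyme (0.63 ± 0.16), and Pgam2, the muscle phosphoglycerate mutase (-0.64 ± 0.18). Gbe1 lost its call in 4 and Pgam2 in 7 of 25 other fits, neither passed without replicate 1 of 26 months, and 4 genes fell without replicate 8 of 8 months.

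**Figure D4:**
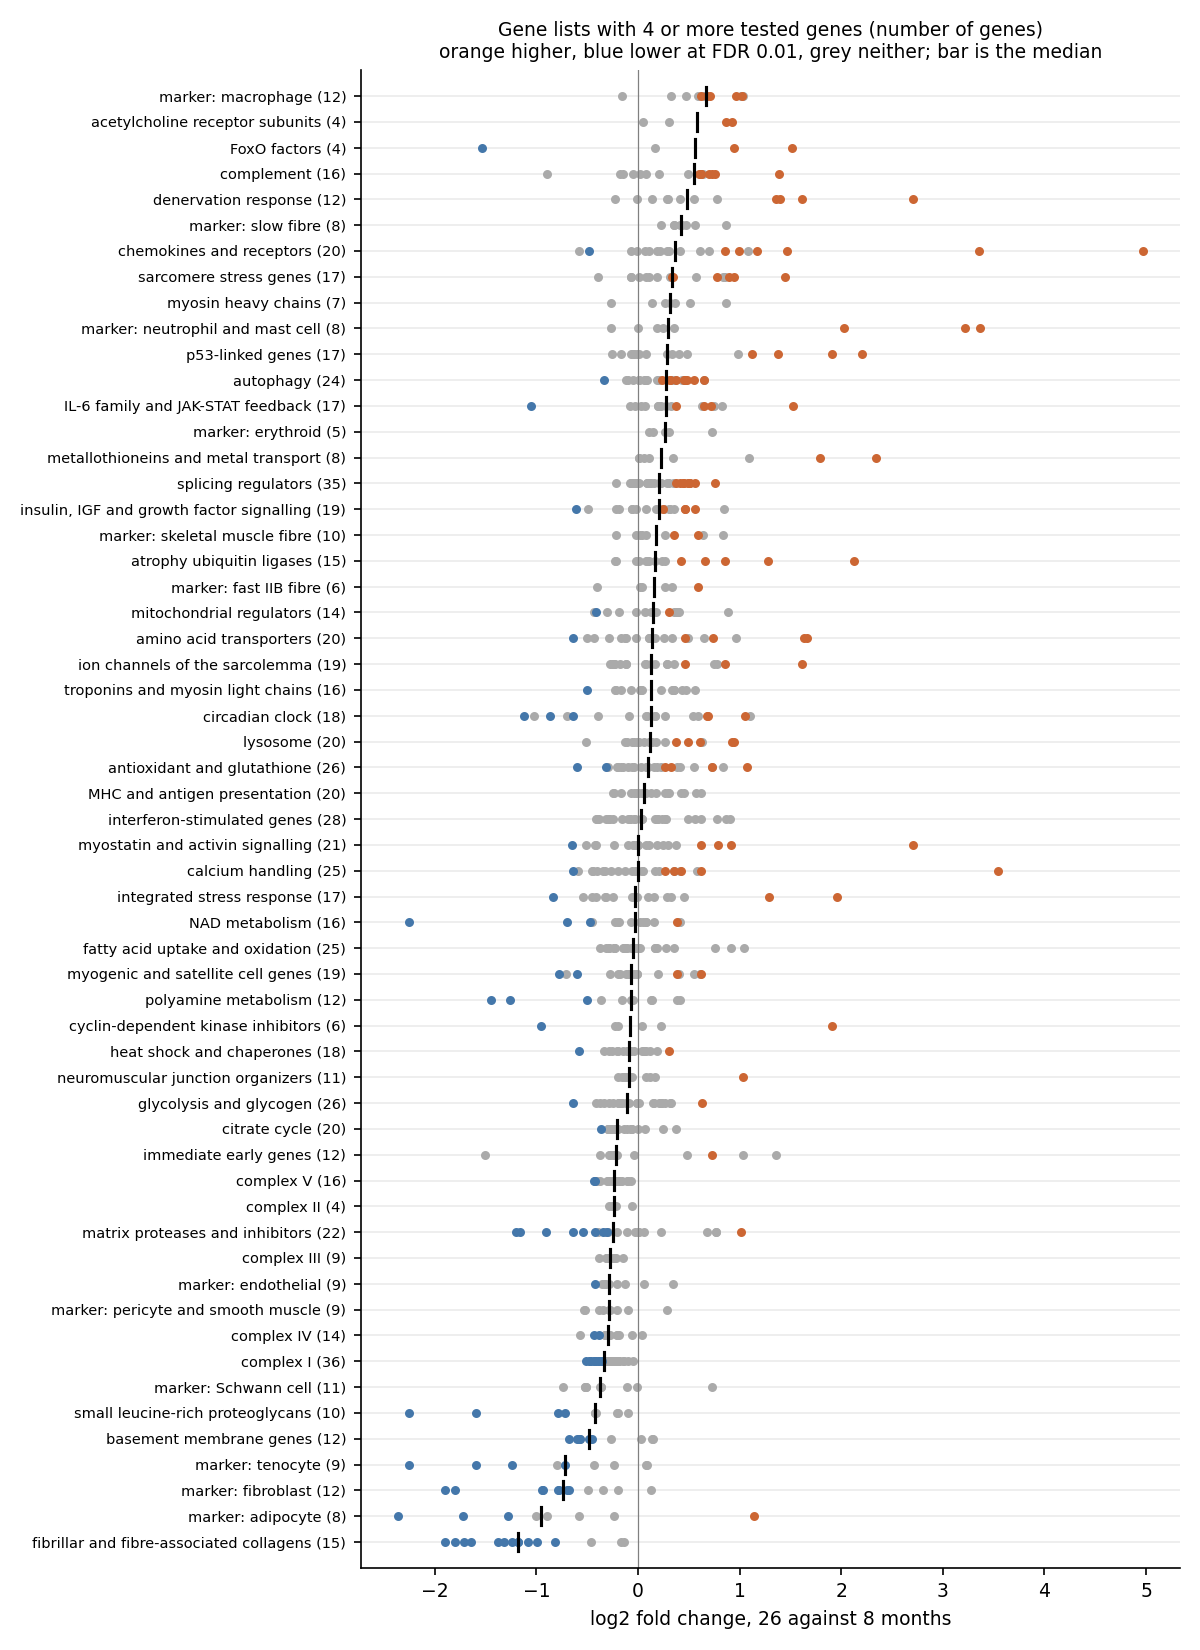
Log2 fold change of 26 against 8 months for each tested gene (points) of the gene lists with 4 or more tested genes, sorted by their median (black bars), orange and blue for genes higher and lower at FDR 0.01 and grey for the others. Fibrillar collagens have the lowest median, -1.19, the 36 complex I genes all lie left of 0, and the macrophage markers have the highest median, 0.66.

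All 10 fibre markers were abundant, with a summed level of 163435 to 193044 TPM (median 177413) at 8 months and 167611 to 215061 TPM (median 199391) at 26 months, and 2 rose, beside 9.84% of all genes, Actn3 (0.59 ± 0.15) and the calcium pump Atp2a1 (0.36 ± 0.10). Neither passed without replicate 1 of 26 months. Of 7 tested myosin heavy chain genes, whose reads overlap in sequence, none passed in edgeR, none had an unadjusted p below 0.05, and DESeq2 called 0. Myh4, the fast IIB form, lay at 40144 to 81282 CPM (median 57705) and 49712 to 90455 CPM (median 71632), and Myh7, the slow form, at 58.1 to 403 CPM (median 289) and 98.4 to 1076 CPM (median 421). Both ranges overlapped widely. Their log2 fold changes were 0.27 ± 0.15 and 0.87 ± 0.45. Of 17 genes of sarcomere stress 6 rose, beside 9.84% of all genes, among them Ankrd1, a stretch-induced ankyrin repeat protein, from a median of 7.28 to 24.7 CPM (1.44 ± 0.30, edgeR FDR 0.000419), and Flnc, filamin C of the Z-disc, from 786 to 1336 CPM (0.90 ± 0.19, edgeR FDR 0.000541). Hspb7, a small heat shock protein of muscle, also rose (0.94 ± 0.27), with a call lost in 12 of 25 other fits. Without replicates 1 and 8 the list had 5 genes that rose.

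Cacna2d4 and Kcng4, subunits of membrane channels, were among the 10 largest decreases of genes averaging 5 CPM or more. The list of sarcolemmal channels had calls only in the other direction. Mean Cacna2d4 was 8.84 CPM at 8 and 2.46 CPM at 26 months. Like Kera and Plin1, it thus averages 5 CPM or more only through the young mice. Cacna2d4, an auxiliary subunit of calcium channels, fell from a median of 8.13 to 2.48 CPM (-1.84 ± 0.26, edgeR FDR 3.55e-06), with 8 of 9 old mice below all young ones and replicate 2 the exception. Kcng4, a modifier subunit of potassium channels, fell from 31.1 to 70.0 CPM (median 42.6) to 3.51 to 25.9 CPM (median 14.6), without overlap (-1.79 ± 0.34, edgeR FDR 0.000152). In the list of 19 sarcolemmal channels 3 rose, beside 9.84% of all genes, and none fell (median log2 fold change 0.13), among them Kcnc4, a fast potassium channel (0.86 ± 0.15, edgeR FDR 3.61e-05). Of 25 calcium handling genes 5 rose, beside 9.84% of all genes, or 3 without replicate 1, 3 or 8 of 26 months, Sln with the largest estimate. In this list 1 fell, beside the 8.54% of all genes, Sypl2, a protein of the triad (-0.64 ± 0.19), whose call was lost in 13 of 25 other fits. Leaving out 1 mouse gave 0 to 3 genes that fell, and DESeq2 called 2 lower.

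The chemokine genes Cxcl13 and Ccl8 rose from low levels, and like Sln they average 5 CPM or more only through the old mice. Cxcl13, which draws B cells, was at 0.441 to 1.29 CPM (median 0.665) in young and 2.33 to 78.5 CPM (median 9.25) in old muscle (log2 fold change 4.97 ± 0.79, edgeR FDR 1.40e-05). The old mice spanned a wide range, replicates 3 and 9 at its top, and none overlapped the young. Over the other fits the log2 fold change of Cxcl13 ran from 3.32 to 5.12, and its call held. Ccl8, which draws monocytes, rose from 0.333 to 3.14 CPM (median 0.983) to 5.64 to 26.4 CPM (median 11.8), also without overlap (3.36 ± 0.39, edgeR FDR 1.02e-07). In the list of 20 tested chemokines and receptors 6 rose and 1 fell, beside 9.84% and 8.54% of all genes. Cxcl13 and Ccl8 are among these 6. Their young medians were under 1 CPM, and they passed the filter on low counts mainly through older mice. Without replicates 1 and 8 the list had 5 genes that rose. Ccl6 and Ccl9, also higher, are close copies whose reads may be shared.

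The macrophage list had 12 tested entries, 2 of them for Itgam. Macrophage markers rose in 5 of the 12, beside 9.84% of all genes, and fell in none (median log2 fold change 0.66). Leaving out 1 mouse gave 2 to 7 entries that rose. The number was 2 without replicate 3 of 26 months or replicate 5 or 6 of 8 months. It was 3 without replicate 6 of 26 months or replicate 2 or 8 of 8 months. Of the 5, Fcgr1 lay at 0.428 to 0.976 CPM at 8 months and passed the filter on low counts mainly through older mice. Its call was lost in 15 of 25 other fits. Cd163, the scavenger receptor of resident macrophages, went from 13.9 to 33.5 CPM (median 22.0) to 33.5 to 62.8 CPM (median 46.3), all old mice above all young ones, if narrowly (1.02 ± 0.22, edgeR FDR 0.000667). Mrc1, the mannose receptor, had medians of 22.9 and 34.6 CPM (0.71 ± 0.18, edgeR FDR 0.00253). The summed level of the list was 172 to 295 TPM (median 217) at 8 months and 238 to 501 TPM (median 345) at 26 months, its most abundant gene, the lysozyme Lyz2, having means of 131 and 212 TPM. Lyz2 itself did not pass (0.65 ± 0.21, edgeR FDR 0.0131), but did in 7 of 25 other fits, DESeq2 and both limma fits among them. Of 16 complement genes 7 rose, beside the same share, and none fell, but 3 rose without replicate 3 of 26 months or replicate 5 of 8 months, and 4 without replicate 3, 6 or 8 of 8 months. C4b rose with medians of 34.0 and 80.3 CPM and no overlap (1.39 ± 0.21, edgeR FDR 5.28e-06) and held its call in every other fit. C1qa (0.62 ± 0.17) lost its call in 4 and Cfb, complement factor B (0.76 ± 0.23), in 16 of 25 other fits. C1qa is also among the 5 macrophage entries that rose, so the 2 lists overlap.

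S100a8, S100a9 and Jchain, transcripts of neutrophils and plasma cells, were scarce at 8 months and rose by 26 months. With young medians under 1 CPM, they passed the filter on low counts mainly through older mice. S100a9, a calcium-binding protein of neutrophils, lay at 0.298 to 1.08 CPM (median 0.726) and 1.44 to 35.5 CPM (median 4.98), with log2 fold change 3.37 ± 0.66 (edgeR FDR 0.000223). Its partner S100a8 followed, with medians of 0.485 and 3.76 CPM (3.22 ± 0.71, edgeR FDR 0.000695). In both genes replicate 7 of 26 months stood far above its group, at 35.5 and 26.1 CPM. Both calls held in each fit that left out 1 mouse, with log2 fold changes down to 2.43 for S100a9 and 2.38 for S100a8. Jchain, the joining chain of IgA and IgM, rose from a median of 0.513 to 5.44 CPM (3.34 ± 0.57, edgeR FDR 3.61e-05). The T cell list had no gene past the filter, with summed levels of 1.14 to 2.19 TPM at 8 months and 0.841 to 4.26 TPM at 26 months. No interferon-stimulated gene of 28 and no gene of 20 in antigen presentation passed in edgeR. At an unadjusted p below 0.05, 3 interferon-stimulated genes were higher and 2 lower, and 3 antigen presentation genes were higher. DESeq2 called 0 in both lists.

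Il6ra and Osmr, receptors of the IL-6 family, rose. Of 17 tested genes of the family and its JAK-STAT feedback 4 rose and 1 fell, beside 9.84% and 8.54% of all genes, with 2 rising without replicate 1 or 3 of 26 months or replicate 1, 3 or 4 of 8 months. Il6ra, the IL-6 receptor, went from 7.33 to 13.5 CPM (median 11.4) to 13.1 to 69.4 CPM (median 22.6), with 8 of 9 old mice above the young range (1.52 ± 0.34, edgeR FDR 0.000891), and did not pass without replicates 1 and 8. Osmr, the oncostatin M receptor, had 7 of 9 old mice above all young ones (0.72 ± 0.16, edgeR FDR 0.000744). Stat3, the transcription factor downstream, had no overlap between ages, with medians of 58.5 and 83.0 CPM (0.64 ± 0.19, edgeR FDR 0.00785), but lost its call in 16 of 25 other fits. Bcl6, a repressor that dampens STAT signalling, fell from a median of 118 to 61.1 CPM (-1.06 ± 0.20, edgeR FDR 0.000181).

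Igf1, the insulin-like growth factor, was at medians of 20.7 and 15.1 CPM and did not pass (-0.18 ± 0.14, edgeR FDR 0.314), while 4 of 19 genes of insulin and IGF signalling rose, Igf1r (0.56 ± 0.16) the most, and 1 fell, Igfbp6 (-0.61 ± 0.14), beside 9.84% and 8.54% of all genes. DESeq2 called 7 of the 19 higher. Without replicate 1, 3 or 5 of 8 months, or without replicate 1 of 26 months, none of these 4 kept its call. Mstn, myostatin, the inhibitor of muscle growth, had 0.25 ± 0.19 (edgeR FDR 0.322). Acvr1b, a type I receptor of activin and myostatin, rose from 48.9 to 79.5 CPM (median 68.4) to 68.8 to 233 CPM (median 124), with 8 of 9 old mice above all young ones (0.92 ± 0.19, edgeR FDR 0.000450). In that list of 21 genes of myostatin and activin signalling 4 rose and 1 fell, beside the same shares, and the median log2 fold change was 0.0022.

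Autophagy genes rose in 9 of 24 tested members and fell in 1 (median log2 fold change 0.28), by small steps, beside 9.84% and 8.54% of all genes. Map1lc3b, the LC3B protein of the autophagosome membrane, had medians of 223 and 302 CPM (0.55 ± 0.14, edgeR FDR 0.00294), Bnip3, a receptor for mitochondria in autophagy, 340 and 445 CPM (0.65 ± 0.17, edgeR FDR 0.00391). Sqstm1, the adaptor p62, had 638 and 799 CPM (0.45 ± 0.13, edgeR FDR 0.00907) and lost its call in 16 of 25 other fits. Replicates 1 and 8 of 26 months were among the 3 highest in all 3 genes, and without replicate 1 the list had 3 genes that rose, or 5 without replicate 3 or 8 of 26 months or replicate 7 or 8 of 8 months. Map1lc3b and Bnip3 did not pass without replicate 1 of 26 months, nor Bnip3 without replicate 8. Beside the same shares, 5 of 20 lysosomal genes rose and none fell, with 3 rising in 8 of the 17 fits that left out 1 mouse, Npc1, a cholesterol transporter (0.94 ± 0.24), and Ctss, a protease of macrophages (0.93 ± 0.23), the most, the Npc1 call being lost without replicates 1 and 8. Splicing regulators rose in 9 of 35 genes, among them Hnrnpa1 (0.56 ± 0.13) and Rbm3, a cold-induced RNA-binding protein (0.76 ± 0.20), beside 9.84% of all genes, and neither of these passed without replicates 1 and 8. This list had 2 genes that rose without replicate 1 of 26 months, 4 without replicate 8 of 26 months and 5 without replicate 5 of 8 months.

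Of 18 clock genes 3 rose and 3 fell, beside 9.84% and 8.54% of all genes, or 5 lower without replicate 2 or 5 of 26 months. Bhlhe41, a repressor of the clock, fell from 41.0 to 98.8 CPM (median 58.9) to 18.2 to 39.7 CPM (median 29.3), without overlap (-1.12 ± 0.19, edgeR FDR 3.72e-05). Nr1d1, the repressor REV-ERB alpha, had medians of 117 and 61.7 CPM (-0.87 ± 0.18, edgeR FDR 0.000366), and Cry2, a core repressor, rose from a median of 66.6 to 110 CPM without overlap (1.06 ± 0.24, edgeR FDR 0.000844), a call lost without replicates 1 and 8 of 26 months. The hour of dissection is not in the labels, and its part in these values was not tested. Among 19 tested myogenic and satellite cell genes 2 rose and 2 fell, near the shares of all genes, or 4 rose without replicate 5 or 7 of 26 months. Pax7, which marks satellite cells, did not pass (-0.71 ± 0.26, edgeR FDR 0.0283), at medians of 1.82 and 1.12 CPM.

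The neighbouring ages give values to set beside these. At 24 months 77 genes (0.612% of those tested) differed from 8 months by the same test. Both comparisons use the same 8 months-old mice, so their values are set side by side only. Chrna1 was 0.94 higher on the log2 scale at 24 months and 0.93 at 26 months, Runx1 1.18 and 1.40, and S100a9 3.89 and 3.37. Col3a1 was -1.53 and -1.90, and Smox -1.13 and -1.45. The atrophy and stress genes had smaller values at 24 months, 0.34 against 2.13 for Trim63, 0.27 against 1.28 for Fbxo32, 0.21 against 1.51 for Foxo1, 0.61 against 2.21 for Sesn1 and 0.41 against 2.34 for Mt2. The direct comparison of 26 with 24 months tests these differences. It gave no gene at FDR 0.01 in edgeR (lowest FDR 0.0435), 2202 genes with an unadjusted p below 0.05, and 14 genes by DESeq2. Trim63 had a log2 fold change of 1.79 between 24 and 26 months with an edgeR FDR of 0.0502, and Cblb 0.92 with 0.0569. Between 26 and 28 months edgeR again called no gene (lowest FDR 0.140), with 1609 at an unadjusted p below 0.05, and DESeq2 called 0.

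**Figure D5:**
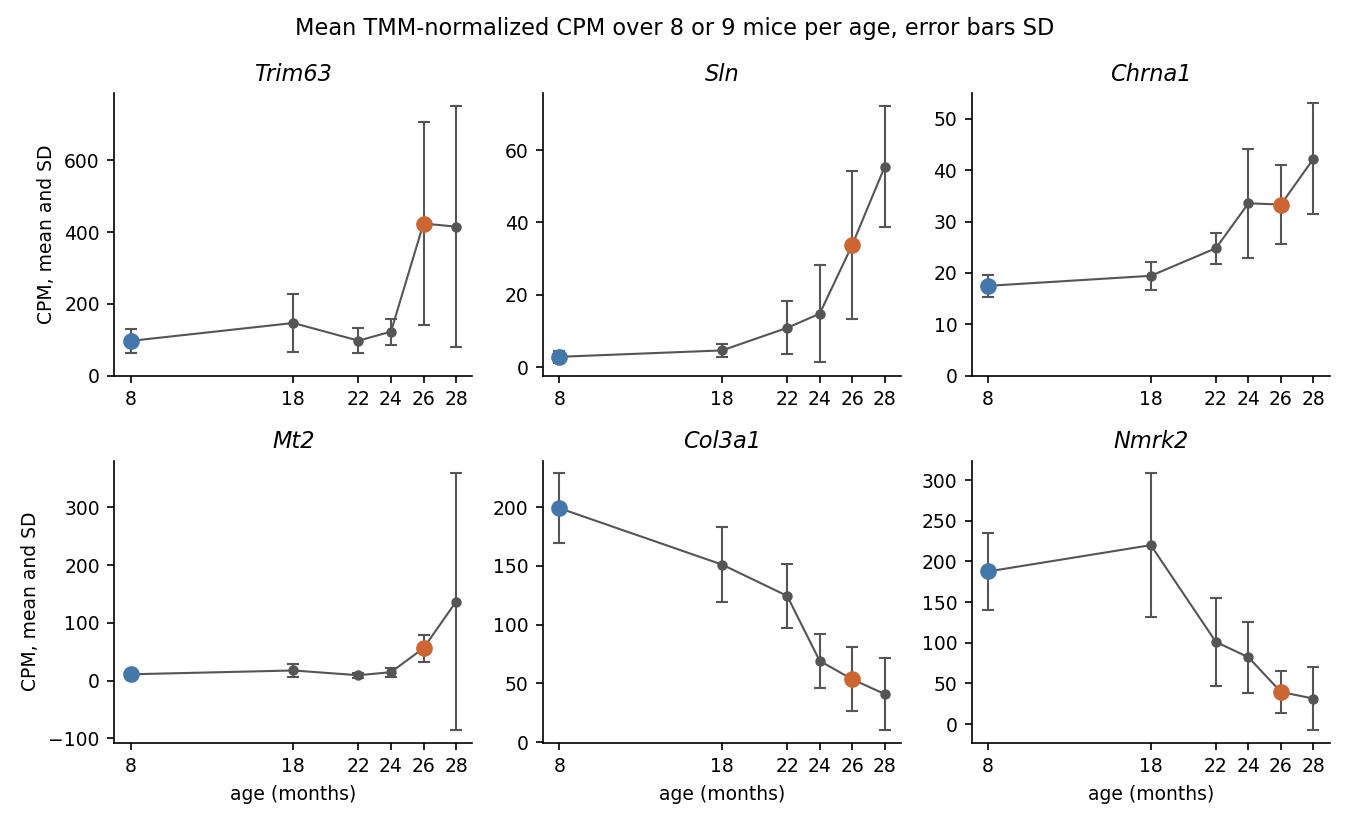
Mean CPM with SD over the 8 or 9 mice of each age (x axis, months; linear y axes) for 6 genes, with 8 months in blue and 26 months in orange. Mean Trim63 is 97.2 CPM at 8, 123 at 24 and 424 at 26 months, Chrna1 reaches 33.6 CPM at 24 and 33.3 at 26 months, and Col3a1 and Nmrk2 are lower at each age from 22 months on than at 8 months.

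Mean Trim63 was 97.2 ± 34.5 CPM (SD) at 8 months, 147 ± 80.2 at 18 months, 97.7 ± 34.5 at 22 months and 123 ± 35.9 at 24 months. The 26 months-old mice averaged 424 ± 282 CPM and the 28 months-old mice 415 ± 337 CPM, with the widest spread of Trim63 at these 2 ages. Mean Sln was 14.8 ± 13.4 CPM at 24 and 33.8 ± 20.4 at 26 months. Mean Col3a1 was 199 ± 29.6, 69.1 ± 23.3 and 53.5 ± 27.1 CPM at 8, 24 and 26 months. In edgeR, Sln and Col3a1 passed the test against 8 months at both 24 and 26 months, and Trim63 at 26 months only. The difference between 24 and 26 months was called by edgeR for none of the 3.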

How the data were processed

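The submitters' processing notes name cutadapt 1.9.1 and kallisto 0.43.1. Per the labels and the study's methods, poly(A) RNA was sequenced paired-end from stranded libraries, and the authors trimmed the reads and quantified protein-coding transcripts of GRCm38. The deposited counts are whole numbers per gene, in which a read fitting several transcripts was shared among them, so close paralogs are uncertain. The deposited TPM values were scaled for length and depth by the authors and were used for levels and principal components. From the counts, edgeR 4.0.16 (R 4.3.3) was fitted to all 50 mice with 1 term per age and TMM factors, keeping genes that reached 1 CPM in 8 or more mice, and the quasi-likelihood test was applied with Benjamini-Hochberg adjustment at FDR 0.01. CPM values were TMM-normalized. The SE of a log2 fold change was derived from the test, as its absolute value over the square root of the F statistic. The fit was tested on simulated data. Alternatives were upper-quartile factors, DESeq2 1.42.0, no filter, the 2 ages alone, limma 3.58.1 on log2(TPM + 1) and log2(TPM + 0.1), the replicate number as a block, and leaving out each mouse. Named genes are the 10 largest increases and 10 largest decreases among called genes averaging 5 CPM or more, and the 2 called members of each gene list with the largest change. Other list members and Amy1, Glra3, Pon1 and Arrdc3 were chosen with their values known. The genes tested and the lists were chosen with earlier results of these data known. Each replicate is a separate mouse. Positions are from GENCODE M21 and promoter windows from RefSeq (104 of 131 named genes matched). Permutations, components and figures used scipy 1.17.1, numpy 2.4.6, pandas 2.3.3 and matplotlib 3.10.9 (Python 3.11.15). Mice of 18, 22, 24 and 28 months entered only the shared fit and the comparison with neighbouring ages. One called member of the denervation and channel lists is counted there but not reported here.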

Additional observations from a re-analysis of the deposited data

Results flagged for a closer look

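Dixon's test, applied to the CPM of 266 groups of 8 or 9 mice, set 24 single mice apart from their group, where chance alone gives about 1 in 20 groups. In the young mice 11 of these values belonged to replicate 3. It was high in Cox5a (766 CPM), Atp5g1 (760 CPM), Atp5j (653 CPM), Ndufs4 (309 CPM), Cox7a2 (264 CPM), Ndufa8 (255 CPM), Ndufc1 (221 CPM) and Ndufc2 (167 CPM), all subunits of the respiratory chain, in the mitochondrial deacetylase Sirt3 (33.5 CPM) and in Ankrd1 (20.3 CPM), and low in Cry2 (49.2 CPM). Young replicate 2 stood apart in Trim63 (171 CPM), Ddit4 (153 CPM) and Chrna1 (22.1 CPM), genes that rose by 26 months, and young replicate 8 in Lep (15.7 CPM). At 26 months, replicate 7 stood apart in the neutrophil genes S100a8 (26.1 CPM) and S100a9 (35.5 CPM). Replicate 2 was high in Cacna2d4 (5.66 CPM) and Plin1 (10.3 CPM), replicate 1 in Acvr1b (233 CPM) and Gbe1 (128 CPM), replicate 3 in Myog (11.3 CPM) and Stat3 (138 CPM), and replicate 8 in Cblb (81.9 CPM).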

How the results depend on the processing

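The count of 2314 changed genes ran from 1453 (without replicate 1 of 26 months) to 2597 when 1 mouse was left out, genes higher from 775 to 1351 and genes lower from 678 to 1246. Without replicates 1 and 8 of 26 months together, a fit chosen after seeing the data, 842 genes passed, 424 higher and 418 lower. Limma on log2(TPM + 1) called 804 genes higher. Of the called genes 53.5% were higher, against 47.1% with upper-quartile factors and 47.2% and 48.9% with limma and pseudocounts of 1 and 0.1. DESeq2 gave 190 genes between 24 and 8 months and 14 between 26 and 24 months, both fits added after seeing the data. The difference in median coefficient of variation ran from -0.0131 (without replicate 1 of 26 months, where its sign turned) to 2.91 percentage points, and that in total counts from -2.72 to -1.94 M counts, with 5 of 17 such values at an exact permutation p above 0.05 (0.0522 to 0.0593). Chrne, which was not called, ran from -0.0144 (without replicate 8 of 26 months) to 0.12 on the log2 scale, and also turned negative without replicate 3 of 8 months. The cause was not tested. Over all named genes and settings, 2956 of the values kept direction and side of the threshold, 300 lost the call and 13 gained it. With the replicate number as a block 2374 genes passed, 1263 higher and 1111 lower. Correlations of same-numbered mice were 0.0085 to 0.322, with 4 of 8 over 0.1 and 2 of 8 best with their own number. Whether same-numbered mice shared a batch is not in the labels and was not tested.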

Other observations

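The lowest FDR of all genes belonged to Amy1, an amylase that splits starch and glycogen (chromosome 3, 113555710-113606699, GRCm38), chosen here after its values were seen. It lay at 43.8 to 65.7 CPM (median 46.2) in young and 102 to 162 CPM (median 114) in old muscle, without overlap (log2 fold change 1.29 ± 0.10, edgeR FDR 4.43e-13), and was already 1.02 higher at 24 months. Amylase genes are close copies of each other, so its reads may be shared. Among scarce genes, also chosen after their values were seen, Glra3, a glycine receptor subunit whose level stayed far under 1 CPM in all young mice, lay at 0 to 0.126 CPM in young and 0.488 to 5.29 CPM in old muscle. Its log2 fold change was between 0.59 with limma on log2(TPM + 1) and 5.38 without replicate 5 of 8 months, so that its size depends on the scale. Pon1, paraoxonase, fell from a median of 2.91 to 0.383 CPM (-2.74 ± 0.35, edgeR FDR 4.88e-07). Arrdc3, an arrestin-like protein, rose from a median of 58.4 to 187 CPM (1.92 ± 0.41, edgeR FDR 0.000526).

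Of 26 antioxidant and glutathione genes 4 rose and 2 fell, or 2 and 1 without replicate 1 of 26 months, beside 9.84% and 8.54% of all genes. Gstm2, a glutathione transferase, rose from 30.8 to 53.5 CPM (median 37.3) to 44.4 to 121 CPM (median 74.7), with 8 of 9 old mice above all young ones (1.07 ± 0.16, edgeR FDR 5.26e-06). Gpx3, a secreted glutathione peroxidase, rose from a median of 208 to 322 CPM (0.72 ± 0.17, edgeR FDR 0.00143). The next 3 lists lie under those shares when no mouse is left out. Leaving out 1 mouse gave up to 2 heat shock and chaperone genes that fell and up to 2 mitochondrial regulators that rose. Among 18 heat shock and chaperone genes 1 rose, Hsp90ab1 (0.30 ± 0.09), a call lost in 15 of 25 other fits, and 1 fell, Dnaja1 (-0.58 ± 0.12). Of 16 troponins and myosin light chains 1 fell, Myl1 (-0.50 ± 0.13). Of 14 genes listed as mitochondrial regulators 1 rose, Nrf1 (0.31 ± 0.08), and 1 fell, Mlxipl (-0.41 ± 0.11). None of these last 3 passed without replicate 1 of 26 months. Mlxipl is counted by its place on that list, while the study predicted it to regulate inflammation-related genes in mice and humans.

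Of 9 tested endothelial markers 1 fell and of 12 tested immediate early genes 1 rose, near the 8.54% and 9.84% of all genes. Leaving out 1 mouse gave 0 to 3 endothelial markers that fell. No Schwann cell, pericyte and smooth muscle, erythroid or slow fibre marker passed in edgeR. DESeq2 called 1 Schwann cell marker and 1 pericyte and smooth muscle marker lower. In the summed TPM, Schwann cell markers had medians of 223 at 8 and 151 at 26 months, endothelial markers 236 and 206, pericyte and smooth muscle markers 532 and 433, erythroid markers 2018 and 2088, slow fibre markers 1757 and 2478, and immediate early genes 416 and 366. Egfl7, an endothelial factor, fell (-0.42 ± 0.11, a call lost in 6 of 25 other fits), and Ier3, an immediate early gene, rose (0.73 ± 0.22), a call lost in 18 of 25 other fits.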
